A study of Mus musculus with 22 samples.

Results

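The 9 mouse genes described here are the receptors Notch1, Notch2, Notch3 and Notch4 and the ligands Dll1, Dll3, Dll4, Jag1 and Jag2. They were chosen by name as the Notch receptors and their Delta and Jagged ligands, and each has 1 of the 24467 windows of 5000 bp that the authors counted, placed around the transcription start site (TSS) of 1 annotated transcript for every gene. The reads come from CUT&RUN, where an antibody bound in permeable cells brings a nuclease to a protein or histone mark and the DNA around it is cut out and sequenced. The cells were neural progenitor cells (NPC) and the embryonic stem cells (ESC) they were made from, both from a C57BL/6 mouse ESC line, and every group carries the genotype label "untagged, Tir1". NPC were induced over 72 h with bFGF (10 ng/mL), followed by 48 h with SAG (500 nM), which activates Hedgehog signalling. ESC were held in N2B27 medium with LIF at 100 U/mL, CHIR99021 at 3 µM and PD0325901 at 1 µM. In each cell type there were 2 libraries for each of 5 antibodies (SUZ12, JARID2, MTF2, H3K27me3 and H3K4me3), which the series calls biological replicates, and 1 library for IgG, an antibody with no target in chromatin. The comparisons ask how the promoters of receptors and ligands gained or lost Polycomb subunits and histone marks between the cell types.

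Notch signalling passes between touching cells: a Delta or Jagged ligand on one cell pulls on a Notch receptor on its neighbour, the receptor is cut by ADAM proteases and γ-secretase, and its intracellular part enters the nucleus and joins RBPJ and a Mastermind coactivator to switch on Hes and Hey genes. In the embryonic neural tube this exchange keeps part of the cells as progenitors while neighbours that express more ligand become neurons. PRC2, a Polycomb complex with SUZ12 in its core, places methyl groups on lysine 27 of histone H3 (the mark H3K27me3). MTF2 and JARID2 are accessory subunits of separate PRC2 forms, and H3K4me3 lies at active and poised promoters.

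PRC2 is often found at promoters rich in CpG dinucleotides, so the bases around the start sites of 4 members are shown, with each CpG in capitals. They are the ligands Dll1, Dll4 and Jag1, whose Polycomb or H3K4me3 signal differed between NPC and ESC, and the receptor Notch4, whose H3K4me3 level was lower in NPC. Each runs 5′ to 3′ on the strand of the gene, from 250 bases before to 50 bases after the start site, and is credited to RefSeq on build GRCm38.p6. The positions are chr17:15375774-15376073 (minus strand) for Dll1, chr2:119325534-119325833 (plus) for Dll4, chr2:137116471-137116770 (minus) for Jag1 and chr17:34564045-34564344 (plus) for Notch4.
Dll1: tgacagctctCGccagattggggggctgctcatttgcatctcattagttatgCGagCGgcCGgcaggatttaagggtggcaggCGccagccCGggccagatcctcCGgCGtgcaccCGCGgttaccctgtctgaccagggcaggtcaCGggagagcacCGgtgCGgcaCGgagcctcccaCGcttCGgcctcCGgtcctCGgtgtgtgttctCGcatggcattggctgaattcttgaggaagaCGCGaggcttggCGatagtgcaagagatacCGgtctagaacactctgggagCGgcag
Dll4: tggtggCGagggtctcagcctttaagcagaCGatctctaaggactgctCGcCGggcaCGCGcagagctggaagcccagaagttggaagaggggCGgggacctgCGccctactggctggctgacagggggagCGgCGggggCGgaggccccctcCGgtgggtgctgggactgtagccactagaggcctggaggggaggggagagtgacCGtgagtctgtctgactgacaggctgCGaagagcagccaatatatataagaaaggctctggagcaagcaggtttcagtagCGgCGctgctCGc
Jag1: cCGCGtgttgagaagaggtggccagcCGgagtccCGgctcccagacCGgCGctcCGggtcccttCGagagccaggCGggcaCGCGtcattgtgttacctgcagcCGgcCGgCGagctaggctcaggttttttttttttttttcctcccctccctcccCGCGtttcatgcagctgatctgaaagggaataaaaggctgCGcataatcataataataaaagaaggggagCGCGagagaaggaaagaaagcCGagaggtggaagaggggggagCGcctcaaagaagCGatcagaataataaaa
Notch4: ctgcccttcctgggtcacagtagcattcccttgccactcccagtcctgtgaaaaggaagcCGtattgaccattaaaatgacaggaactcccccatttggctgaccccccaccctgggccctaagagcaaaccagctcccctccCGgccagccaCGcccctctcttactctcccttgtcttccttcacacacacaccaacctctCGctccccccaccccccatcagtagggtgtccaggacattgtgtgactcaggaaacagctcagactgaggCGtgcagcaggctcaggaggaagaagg

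The Notch4 stretch held 5 CpG, fewer than the median of 7 over 32851 RefSeq promoters of the same length. Dll1 held 24 CpG, Jag1 22 and Dll4 17. Of the other members, Jag2 held 63 CpG with a GC content of 86.0%, Notch2 41, Notch3 25, Notch1 23 and Dll3 11. All 9 members were found among the RefSeq promoters, and the start used for Notch3 lies 38 bases from the deposited one. The CpG-rich members include both receptors and ligands, as the plot of CpG positions shows. The core of the RBPJ binding motif, TGGGAA, was searched on both strands and was in none of the 9 stretches, against 25.6% of all promoters. The longer form CGTGGGAA, which contains the core, was in 0.734% of all promoters.

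**Figure D1:**
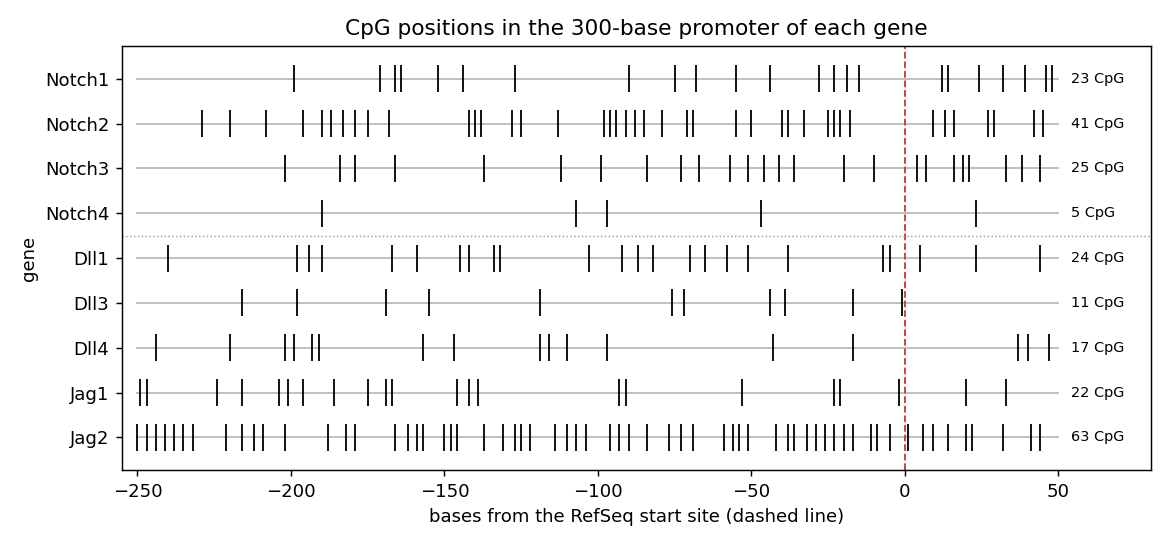
Each row is 1 gene, each tick 1 CpG, and the x axis gives the distance in bases from the RefSeq start site. Notch4 has 5 ticks and Jag2 has 63, with receptors above the dotted line and ligands below it.

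On the deposited build (mm10), the windows of the receptors are chr2:26501322-26506322 for Notch1, chr3:98011037-98016037 for Notch2, chr17:32164352-32169352 for Notch3 and chr17:34561794-34566794 for Notch4. Those of the ligands are chr17:15373323-15378323 for Dll1, chr7:28299285-28304285 for Dll3, chr2:119323283-119328283 for Dll4, chr2:137114020-137119020 for Jag1 and chr12:112926995-112931995 for Jag2. Each spans the promoter and the first bases of the gene. The Notch1 window overlaps that of Gm35978, whose start lies 104 bp away, and the Dll4 window that of Gm14207, 414 bp away, so reads of these pairs cannot be told apart.

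Total counts over the windows ran from 339591 to 1569812 for SUZ12, JARID2, MTF2 and H3K27me3, from 3264267 to 8425292 for H3K4me3, and were 667898 in NPC and 298458 in ESC for IgG. Levels are given as CPM, counts per 1e6 counts of the library, and 3 counts were worth from 0.356 CPM in the deepest library to 10.05 CPM in the ESC IgG library, which covers counting error only. A change is the log2 ratio of NPC over ESC with its standard error (SE), from edgeR's quasi-likelihood test after TMM scaling, and passed, or was called, where its p after Benjamini-Hochberg adjustment over all windows tested was below 0.05. TMM scaling also weighs the makeup of a library, so a log2 change can differ from the ratio of its CPM values. Statements below that the libraries of the cell types did or did not overlap are descriptions only. With 2 libraries per group, full separation often occurs by chance, and its share over all windows was not counted. A change shared by all windows of an antibody was not measured. Scaling to library totals instead of TMM gave a median change of all windows of 0.32 in place of 0.07 for SUZ12, 0.35 in place of 0.07 for MTF2 and -0.05 in place of 0.12 for H3K27me3. Factors from background windows, whose signal lay below IgG in both cell types, gave -0.06 for SUZ12, -0.14 for MTF2, -0.29 for H3K27me3 and 0.27 for H3K4me3. The cell labels were checked by H3K4me3 at marker genes. Of 10 progenitor markers 9 rose in NPC and 1 fell, of 10 naive ESC markers 9 fell and none rose, and 5 of 5 neuron markers rose. Of the markers of other lineages, 1 rose and 2 fell of 4 for mesoderm, 1 rose and 2 fell of 4 for endoderm, and 3 of 3 fell for neural crest. The part of a mix of cell types in the results below was not tested. In such pooled cells, a smaller share of cells carrying a mark and less of the mark per cell cannot be told apart.

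SUZ12 fell in NPC at all 5 ligand promoters and was called at none of the 4 receptor promoters. Over all windows tested 16.1% were called, 13.1% as lower and 2.97% as higher. The median log2 change was -1.06 over the ligands and -0.15 over the receptors, against 0.07 over all windows. The receptor median exceeded the ligand median by 0.92, with a spread between replicates of 0.18 (SD). At the ligand Dll3, SUZ12 was called above IgG in neither cell type. Of all windows, 0% were called above IgG for SUZ12 in NPC and 5.67% in ESC.

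Dll1, a Delta ligand of somites and neural tube, had 58.0 and 80.2 CPM of SUZ12 in NPC, against 209 and 167 CPM in ESC. Dll4, the Delta ligand best known from sprouting vessels, had 112 and 125 CPM in NPC and 291 and 265 CPM in ESC. Jag1, a Jagged ligand mutated in human Alagille syndrome, had 55.8 and 49.0 CPM in NPC and 93.3 and 90.7 CPM in ESC. Every NPC library lay below every ESC library at these 3 promoters. The log2 changes were -1.71 ± 0.24 (SE, adjusted p = 4.00e-11) at Dll1, -1.49 ± 0.22 (adjusted p = 1.08e-09) at Dll4 and -1.06 ± 0.25 (adjusted p = 0.000303) at Jag1. The call at Dll4 was lost in 1 fit over all 22 libraries and that at Jag1 at a minimum count of 30, while that at Dll1 held under all 11 alternatives.

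Jag2, the second Jagged ligand, had 53.7 and 62.4 CPM of SUZ12 in NPC, against 80.4 and 88.8 CPM in ESC, a change of -0.78 ± 0.25 (SE, adjusted p = 0.0132). Dll3, a divergent ligand that in mouse acts inside the cell and inhibits Notch in cis, had 40.8 and 42.3 CPM in NPC and 64.1 and 51.8 CPM in ESC, a change of -0.77 ± 0.28 (adjusted p = 0.0369). The groups did not overlap at either promoter, but these 2 calls rested on scaling and on single libraries. Both were lost with library totals, without NPC replicate 1, without NPC replicate 2 and in 1 fit over all libraries. The one at Dll3 was also lost without ESC replicate 1, and DESeq2 called neither promoter. Dll3 had no adjusted p in DESeq2 and was not tested at a minimum count of 30. At a minimum count of 30 the Jag2 change was 0.053. IgG measured 50.9 CPM in NPC and 57.0 CPM in ESC at Dll3, and SUZ12 was called above it in neither.

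At the receptors SUZ12 was called neither between the cell types nor above IgG, where 0% of all windows were called in NPC and 5.67% in ESC. Notch1, the main receptor of neural progenitors, had 58.0 and 55.7 CPM in NPC, against 52.5 and 83.3 CPM in ESC, with 68.9 and 60.3 CPM in the IgG libraries of NPC and ESC. Across Notch2, Notch3 and Notch4 the libraries ran from 30.1 to 57.9 CPM in NPC and from 29.1 to 44.4 CPM in ESC. The groups overlapped at all 4 receptors, and the changes lay between -0.44 (Notch1, adjusted p = 0.272) and -0.06 (Notch4, adjusted p = 0.938). Scaling to library totals gave -0.18 at Notch1, 0.039 at Notch2, 0.17 at Notch3 and 0.19 at Notch4, so 3 of these signs depend on the scaling.

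**Figure D2:**
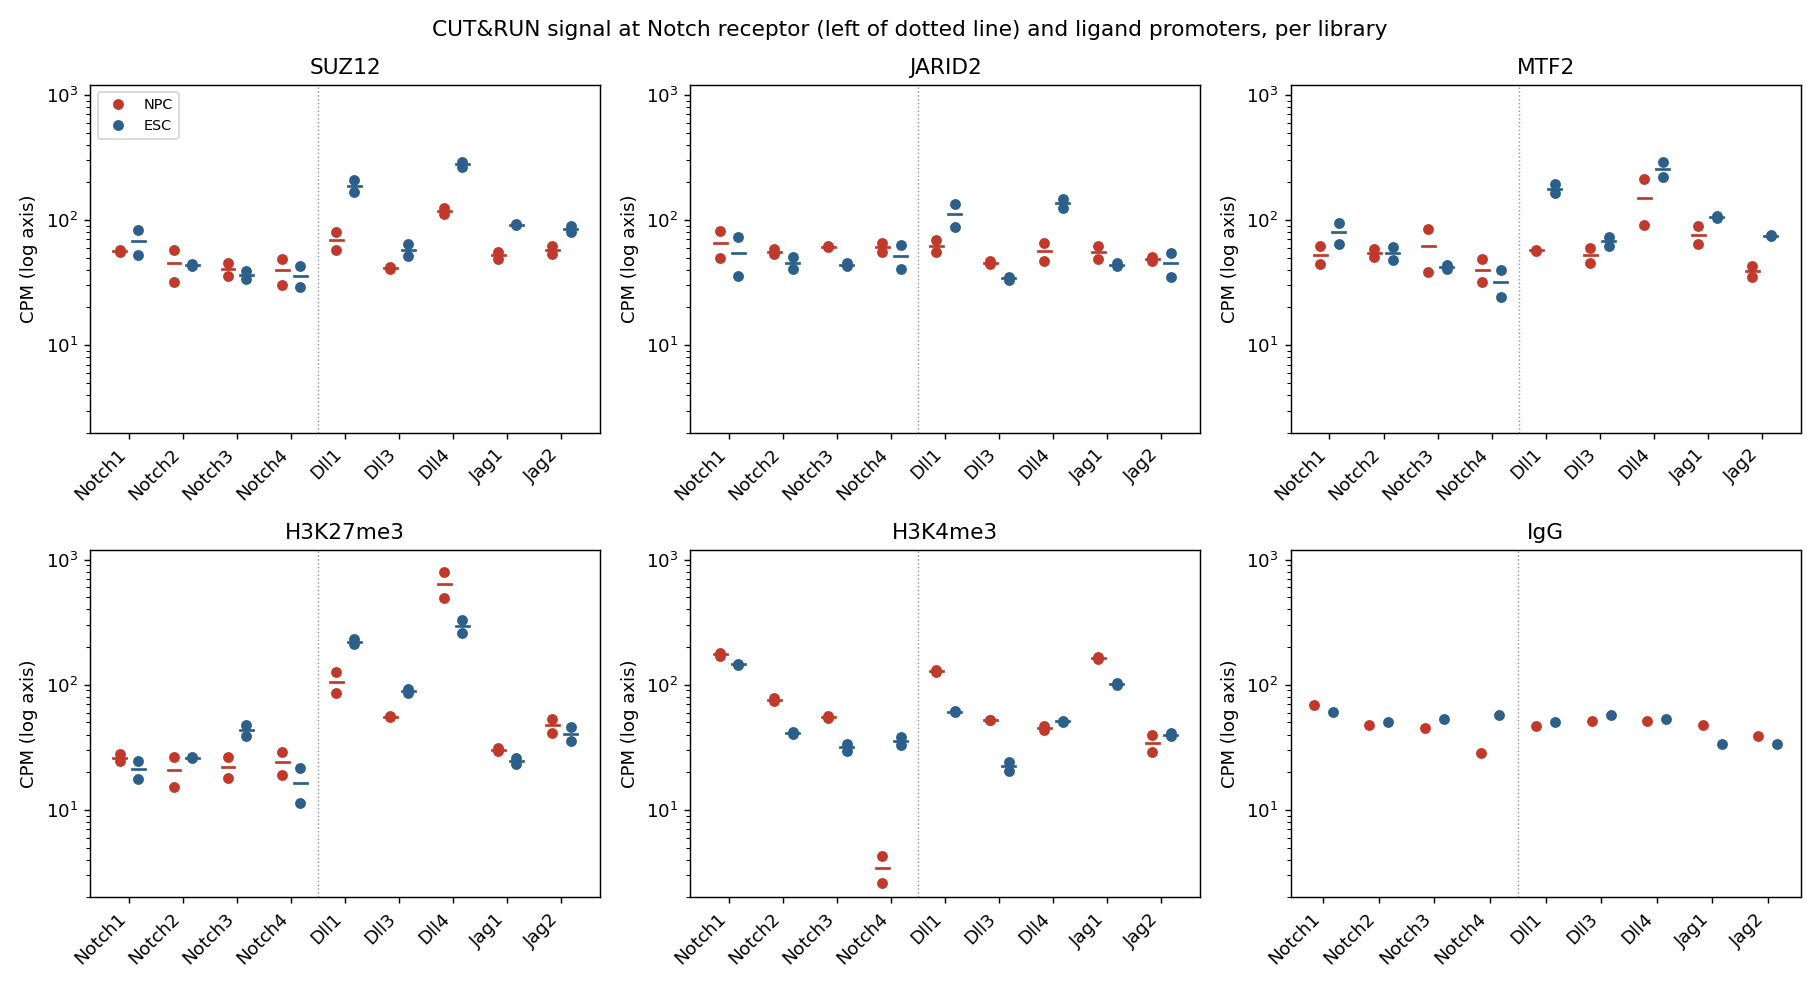
Levels in CPM at the 9 promoters, on a log axis, with 1 panel for each antibody and for IgG, 1 point per library, a line at the mean of 2 libraries, and the NPC points left of the ESC points for each gene. In the SUZ12 panel both NPC points lie below both ESC points at the 5 ligands, and in the H3K27me3 panel Dll4 stands highest in both cell types.

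MTF2 fell in NPC at 2 ligands, Dll1 and Jag2, and was called at none of the receptors. Of all windows tested 12.2% were called, 8.89% as lower and 3.28% as higher. The median change was -1.03 over the ligands and -0.08 over the receptors, against 0.07 over all windows.

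Dll1 had 56.9 and 58.0 CPM of MTF2 in NPC, against 193 and 163 CPM in ESC, a change of -1.91 ± 0.52 (SE, adjusted p = 0.00760). Jag2 had 43.2 and 34.8 CPM in NPC and 74.5 and 75.2 CPM in ESC, a change of -1.22 ± 0.33 (adjusted p = 0.00729). The NPC libraries of both genes lay at or below 58.0 CPM, under all ESC libraries. The 2 calls were lost without ESC replicate 1, without NPC replicate 1 and with the replicate numbers as a block, and the one at Jag2 also without NPC replicate 2, at a minimum count of 30 and with DESeq2.

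At Dll4 the NPC libraries differed from each other by more CPM than the group means did. MTF2 measured 91.0 and 211 CPM in NPC, against 289.6 and 221 CPM in ESC, and the change of -1.03 ± 0.75 (SE) did not pass (adjusted p = 0.370). Jag1 had 63.7 and 89.0 CPM in NPC and 107 and 104 CPM in ESC, a change of -0.73 (adjusted p = 0.214). The groups did not overlap at Dll4 or Jag1, but neither change passed. The remaining ligand, Dll3, had a value of -0.61 (adjusted p = 0.205).

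Among the receptors, Notch1 had 61.5 and 44.5 CPM of MTF2 in NPC, against 94.9 and 64.7 CPM in ESC, a change of -0.92 ± 0.35 (SE, adjusted p = 0.0569). It was called without ESC replicate 2 and with the factors from background windows. Notch2, a receptor of many tissues including the marginal zone of the spleen, had a value of -0.32, Notch3, the receptor of vascular smooth muscle, one of 0.23 and Notch4, an endothelial receptor, one of 0.16, with adjusted p from 0.526 to 0.800. The 2 Notch3 libraries of NPC, at 84.2 and 38.7 CPM, enclosed both ESC libraries, at 40.9 and 43.9 CPM.

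JARID2 fell at 1 member, Dll4, and 0.83% of all windows were called, 0.75% as lower and 0.0792% as higher. Dll4 had 65.0 and 47.1 CPM of JARID2 in NPC, against 126 and 147 CPM in ESC, a change of -1.27 ± 0.26 (SE, adjusted p = 0.000691). Dll1 had 69.0 and 55.9 CPM in NPC and 88.1 and 133 CPM in ESC, a change of -0.83 ± 0.26 that did not pass (adjusted p = 0.138). At both Delta ligands all NPC libraries lay below all ESC libraries. The Dll4 call was lost without ESC replicate 2 and in 1 fit over all libraries. The other 7 members had values between 0.10 (Jag2) and 0.45 (Notch3), none called. In ESC, JARID2 averaged 137 ± 15.3 CPM at Dll4 and 111 ± 31.9 CPM at Dll1 (SD, n = 2 each), at the 99.4 and 99.1 percentile of all windows, and between 34.3 and 54.3 CPM at the other members.

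The change of JARID2 was set against that of MTF2 in an interaction test of edgeR, in which none of the 9 members was called. Of all windows 3.44% were called, 2.78% with the higher change for JARID2 and 0.662% with the lower. At an unadjusted p below 0.05 there were 4 members and 4399 of the 22654 windows tested. DESeq2 called none of the members and 103 of all windows. Jag2 had the smallest adjusted p, with a JARID2 change 1.39 ± 0.47 above the MTF2 change (SE, adjusted p = 0.0676), and the difference at Dll4 was -0.20 ± 0.73 (adjusted p = 0.915). In such a fit both antibodies share 1 estimate of the spread at each window, which may be too small for the noisier of them.

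**Figure D3:**
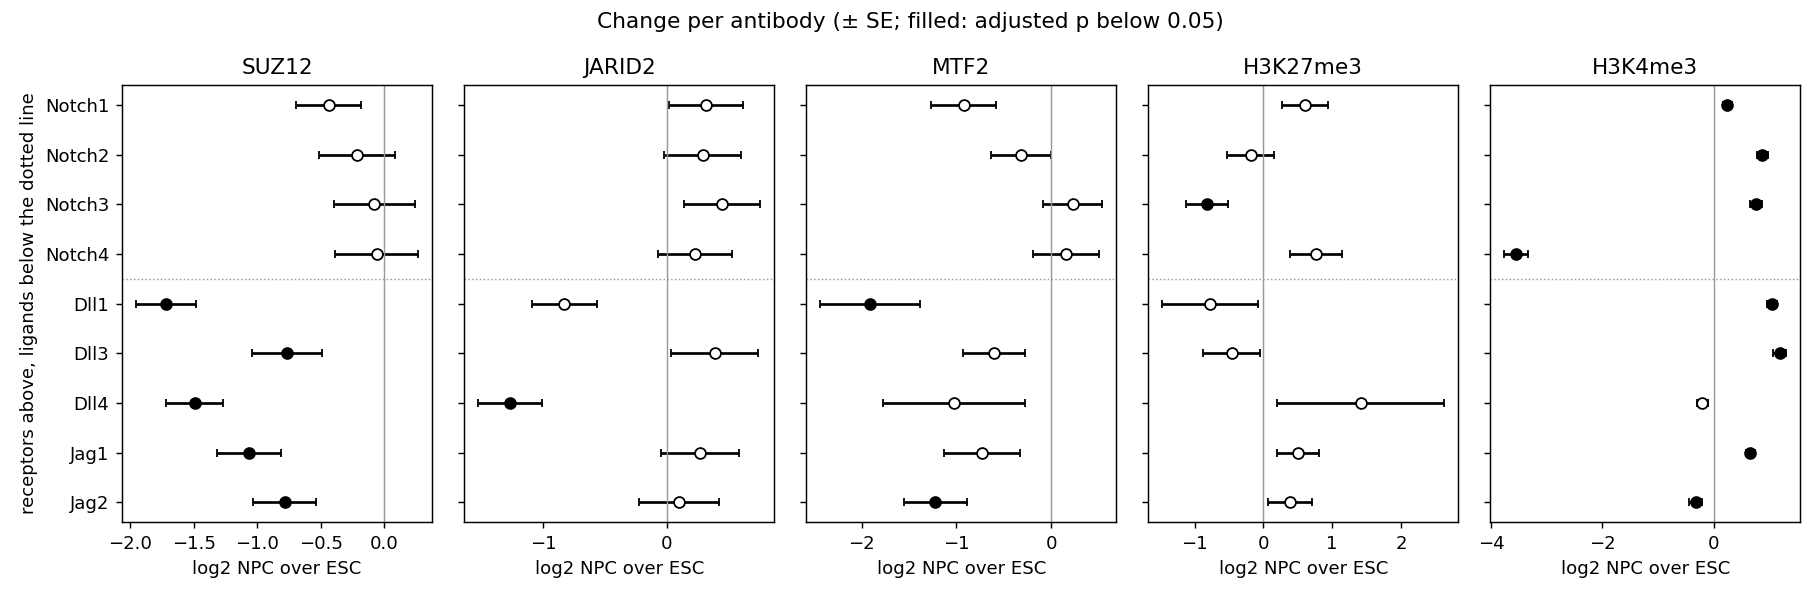
Log2 change of NPC over ESC for each of the 9 genes and 5 antibodies, with bars for ± SE, filled points for values called at an adjusted p below 0.05, and an x axis of its own for each panel. The SUZ12 values run from -1.71 to -0.77 at the ligands and from -0.44 to -0.06 at the receptors, and the H3K4me3 value of Notch4 is -3.55.

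H3K27me3, the product of PRC2, fell at the receptor Notch3 and was called at no ligand. Of all windows tested 46.4% were called, 23.5% as lower and 22.9% as higher, so 1 call among 9 members lies below the share over all windows. The median change was 0.38 over the ligands and 0.21 over the receptors, against 0.12 over all windows.

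Dll4 had 492 and 792 CPM of H3K27me3 in NPC, against 330.4 and 259 CPM in ESC. Both NPC libraries lay above both ESC libraries, and Dll4 stood at the 99.7 percentile of all windows in each cell type. The change was 1.41 ± 1.22 (SE, adjusted p = 0.337), and it was called without NPC replicate 1, where it was 1.93, by DESeq2, at a minimum count of 30 and in 1 fit over all libraries. The alternatives for this value ran from 0.47 to 2.00. The 2 NPC libraries of H3K27me3 stood apart from each other: a chi-square of their counts over windows was 6.80 per degree of freedom, against 1.16 for the ESC pair, and their TMM factors were 1.17 and 0.748.

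Dll1 had 86.5 and 125 CPM of H3K27me3 in NPC and 211 and 232 CPM in ESC, a change of -0.77 ± 0.69 (SE, adjusted p = 0.357). Dll3 had 56.5 and 54.8 CPM in NPC, against 92.2 and 86.5 CPM in ESC, a change of -0.46 (adjusted p = 0.362). Both NPC libraries lay below both ESC libraries at each gene, and neither gene was called. Without NPC replicate 2 both were called as lower, with changes of -1.60 at Dll1 and -0.92 at Dll3, and the same 2 calls were made with library totals. Jag1 had 31.0 and 29.3 CPM in NPC and 25.9 and 23.2 CPM in ESC, and Jag2 53.2 and 41.4 CPM in NPC and 45.6 and 35.5 CPM in ESC, neither called. Jag1 was called as higher without NPC replicate 1 and Jag2 at a minimum count of 30.

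Among the receptors Notch3 had 26.6 and 17.8 CPM of H3K27me3 in NPC, against 47.6 and 38.6 CPM in ESC, a change of -0.82 ± 0.30 (SE, adjusted p = 0.0178). That call was lost without ESC replicate 1, with library totals, at a minimum count of 30 and with DESeq2. IgG measured 44.9 CPM in NPC and 53.6 CPM in ESC at Notch3, so H3K27me3 there lay below IgG in NPC and did not exceed it in ESC on the CPM scale. Notch1, Notch2 and Notch4 ran from 15.3 to 28.8 CPM in NPC and from 11.4 to 26.3 CPM in ESC, with no call, though Notch1 was called as higher without NPC replicate 1 and Notch4 in 1 fit over all libraries.

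The H3K27me3 change exceeded the SUZ12 change at 2 members in the interaction test, Dll4 and Jag1, where 30.9% of all windows were called and 16.7% in that direction. At Dll4 the difference between the changes was 2.91 ± 1.08 on the log2 scale (SE, adjusted p = 0.0290) and at Jag1 1.55 ± 0.49 (adjusted p = 0.00973). In its own fit the H3K27me3 change at Dll4 alone had an SE of 1.22. The spread shared by both antibodies may thus be too small there for H3K27me3. Dll4 combined less SUZ12 in both NPC libraries with more H3K27me3 in both. Its call was lost when any 1 ESC library of H3K27me3 or SUZ12, or either NPC library of SUZ12, was left out, and under the replicate block. The Jag1 call was lost without either ESC library of H3K27me3, without NPC SUZ12 replicate 2, with library totals and with DESeq2. H3K27me3 at Jag1 lay below IgG on the CPM scale, with 30.2 against 47.9 CPM in NPC and 24.5 against 33.5 CPM in ESC. At Dll1 the difference was 0.93 ± 0.78 (adjusted p = 0.361). Without NPC H3K27me3 replicate 1, Dll1, Jag2 and Notch1 were called as well.

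H3K4me3 changed at 8 of the 9 members, where 55.9% of all windows were called, 26.7% as higher and 29.2% as lower. It rose at Notch1, Notch2, Notch3, Dll1, Dll3 and Jag1 and fell at Notch4 and Jag2. The median change was 0.66 over the ligands and 0.50 over the receptors, against -0.02 over all windows. The receptor median was 0.15 below the ligand median.

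Notch1 had 171 and 178 CPM of H3K4me3 in NPC, against 147 and 144 CPM in ESC, a change of 0.24 ± 0.08 (SE, adjusted p = 0.00558). Notch2 had 74.4 and 77.7 CPM in NPC and 40.5 and 42.2 CPM in ESC, a change of 0.88 ± 0.09 (adjusted p = 2.56e-19). Notch3 had 56.4 and 54.5 CPM in NPC and 33.4 and 29.8 CPM in ESC, a change of 0.76 ± 0.11 (adjusted p = 4.79e-12). All NPC libraries lay above all ESC libraries at these 3 receptors, with the smallest change at the receptor that was already highest in ESC. The call at Notch1 was lost when either ESC library or NPC replicate 2 was left out, with no filter, in 1 fit over all libraries and with scaling factors from background windows, and those at Notch2 and Notch3 held under all 12 alternatives.

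Notch4 went the other way. It had 4.29 and 2.61 CPM of H3K4me3 in NPC, from 14 and 22 counts, against 38.1 and 33.1 CPM in ESC, from 241 and 120 counts. The change of -3.55 ± 0.22 (SE, adjusted p = 2.51e-59) was the largest of any member for any antibody, and it held under all 12 alternatives. IgG measured 28.4 CPM in NPC and 57.0 CPM in ESC at Notch4, and H3K4me3 was called above IgG there in neither cell type. No call was made at Notch4 for the other 4 antibodies. Its H3K27me3, at 28.8 and 19.1 CPM in NPC and 11.4 and 21.6 CPM in ESC, gave a log2 value of 0.77 ± 0.38 that did not pass (adjusted p = 0.0799), and the groups overlapped.

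Of the ligands, Dll1 had 126 and 130.2 CPM of H3K4me3 in NPC, against 61.7 and 60.5 CPM in ESC, a change of 1.05 ± 0.09 (SE, adjusted p = 3.05e-32). Dll3 had 52.7 and 52.6 CPM in NPC and 24.0 and 20.4 CPM in ESC, a change of 1.20 ± 0.12 (adjusted p = 3.67e-23). Jag1 had 166 and 159.8 CPM in NPC and 99.5 and 104 CPM in ESC, a change of 0.66 ± 0.08 (adjusted p = 1.46e-14). These 3 ligands were higher in every NPC library, and the calls held under all 12 alternatives. At Dll3, H3K4me3 was called above IgG in neither cell type, with IgG at 50.9 CPM in NPC and 57.0 CPM in ESC.

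Dll4 and Jag2 did not rise. Dll4 had 46.9 and 43.8 CPM of H3K4me3 in NPC, against 50.6 and 51.6 CPM in ESC, a change of -0.21 ± 0.10 (SE) that did not pass (adjusted p = 0.0690). Jag2 had 39.5 and 29.2 CPM in NPC and 41.0 and 38.7 CPM in ESC, a change of -0.32 ± 0.12 (adjusted p = 0.0105). The Jag2 libraries overlapped, and its call was lost without ESC replicate 1, without NPC replicate 2, under the replicate block, in 1 fit over all libraries and with DESeq2, while with factors from background windows the value was 0.019 and uncalled.

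The change of H3K4me3 differed from that of H3K27me3 at 4 members, where 34.8% of all windows were called, 17.4% in each direction. H3K4me3 gained relative to H3K27me3 by 2.01 ± 0.62 on the log2 scale at Dll1 (SE, adjusted p = 0.00661), by 1.86 ± 0.48 at Dll3 (adjusted p = 0.000791) and by 1.78 ± 0.50 at Notch3 (adjusted p = 0.00225). At Notch4 it changed by -4.05 ± 0.53 relative to H3K27me3 (adjusted p = 1.16e-12). The calls at Dll3 and Notch4 held under all alternatives run for them. That at Dll1 was lost without ESC H3K4me3 replicate 1, ESC H3K4me3 replicate 2 or NPC H3K4me3 replicate 2, and that at Notch3 without ESC H3K27me3 replicate 1. At Dll4 the difference was -1.43 ± 0.73 and did not pass (adjusted p = 0.111), but it was called with DESeq2, with library totals and without NPC H3K27me3 replicate 1. Notch2, with a difference of 1.24 ± 0.53 (adjusted p = 0.0567), was called with DESeq2, with library totals and without NPC H3K4me3 replicate 1, so that DESeq2 and library totals each called 6 members. The comparisons share the H3K27me3 libraries. At Dll1 the H3K27me3 change alone had an SE of 0.69 in its own fit, above the 0.62 of the difference. The spread shared by both antibodies may thus be too small there for H3K27me3.

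**Figure D4:**
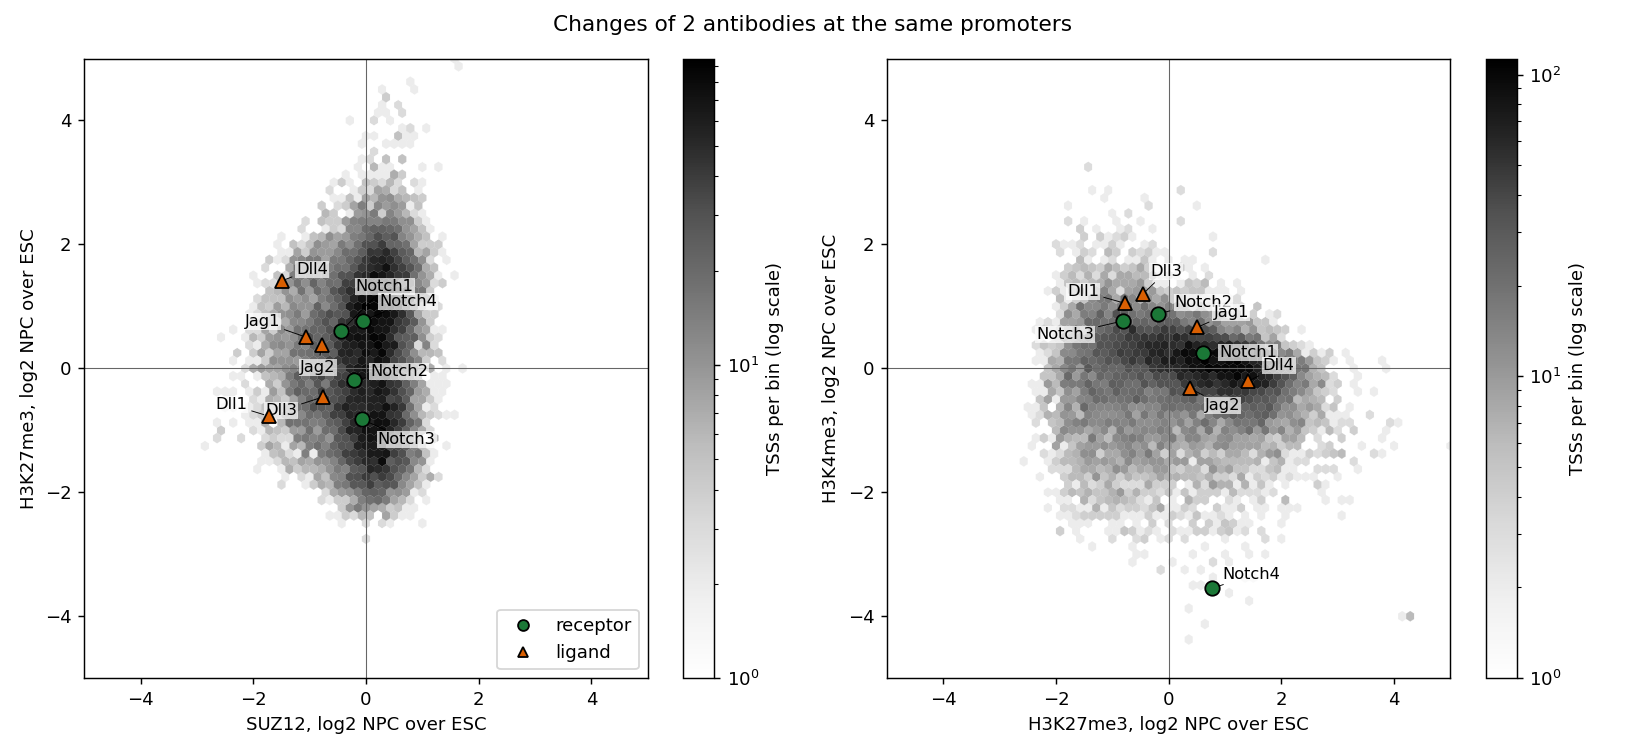
Log2 change of NPC over ESC of H3K27me3 against SUZ12 (left) and of H3K4me3 against H3K27me3 (right), with receptors as circles, ligands as triangles and all windows as grey bins. Dll4 lies at -1.49 for SUZ12 and 1.41 for H3K27me3, and Notch4 at -3.55 for H3K4me3.

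Whether a promoter carried a signal at all was asked against IgG of the same cell type, in 1 fit over the 22 libraries, with a call at an adjusted p below 0.05 and a log2 fold of at least 1. IgG, with 1 library per cell type, was assumed to vary like the other groups. In NPC neither SUZ12, JARID2 nor MTF2 was called above IgG by edgeR at any member, and 0% of all windows were called for each of the 3. At an unadjusted p below 0.05 and the same fold there were 495, 140 and 650 windows for SUZ12, JARID2 and MTF2, with 0, 1 and 1 members among them, and no other tool was run. The highest folds in NPC were at Dll4, 1.30 ± 0.73 for SUZ12 and 1.69 ± 0.73 for MTF2 (SE).

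In ESC, SUZ12 and MTF2 were called at the same 4 ligands (Dll1, Dll4, Jag1 and Jag2) and at no receptor, against 5.67% of all windows for SUZ12 and 9.1% for MTF2. The log2 folds of SUZ12 over IgG in ESC were 2.25 ± 0.60 at Dll1, 2.72 ± 0.80 at Dll4, 1.80 ± 0.52 at Jag1 and 1.68 ± 0.43 at Jag2 (SE). The SUZ12 calls at Dll1, Dll4 and Jag1 were lost without ESC SUZ12 replicate 1, and the MTF2 calls at Dll1, Dll4 and Jag2 without ESC MTF2 replicate 1. With library totals the SUZ12 calls at Jag1 and Jag2 and the MTF2 call at Jag2 were lost. In ESC, JARID2 was called by edgeR at no member and at 0% of all windows, with 560 windows and 0 members at an unadjusted p below 0.05, and its highest member folds were 1.38 at Dll4 and 1.17 at Dll1.

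H3K27me3 was called above IgG at Dll1, Dll3, Dll4 and Jag2 in NPC, where 15.1% of all windows were, and at Dll1, Dll3 and Dll4 in ESC, where 22.5% were. Dll4 had the highest fold in both, 4.73 ± 0.82 in NPC and 3.07 ± 0.81 in ESC (log2, SE). Those of Dll1 were 2.24 ± 0.55 in NPC and 2.74 ± 0.60 in ESC. No receptor was called in either cell type. The NPC calls at Dll3 and Jag2 were lost without NPC H3K27me3 replicate 2 and with library totals, and the ESC call at Dll3 with library totals.

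H3K4me3 was called above IgG at Notch1, Notch2, Notch3, Dll1 and Jag1 in NPC, where 38.9% of all windows were, and at Notch1, Jag1 and Jag2 in ESC, where 36% were. Jag1 had log2 folds of 2.68 ± 0.42 in NPC and 2.45 ± 0.50 in ESC (SE), and Notch1 of 2.26 ± 0.45 in NPC and 2.12 ± 0.50 in ESC. Notch4 had a log2 fold over IgG of -2.20 ± 0.48 in NPC and 0.18 ± 0.40 in ESC. Dll1 had 2.38 ± 0.55 in NPC and 1.13 ± 0.59 in ESC, where it did not pass (adjusted p = 0.0772). With library totals 3 members stayed called in NPC, without Notch2 and Notch3. The ESC call at Jag2, with a fold of 1.10 ± 0.43, was lost in each of the 5 alternatives run. Dll1 was called for both H3K4me3 and H3K27me3 in NPC. In ESC its H3K4me3 was called above IgG when the IgG libraries of both cell types served as the control, and then Dll1 was called for both marks there too.

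**Figure D5:**
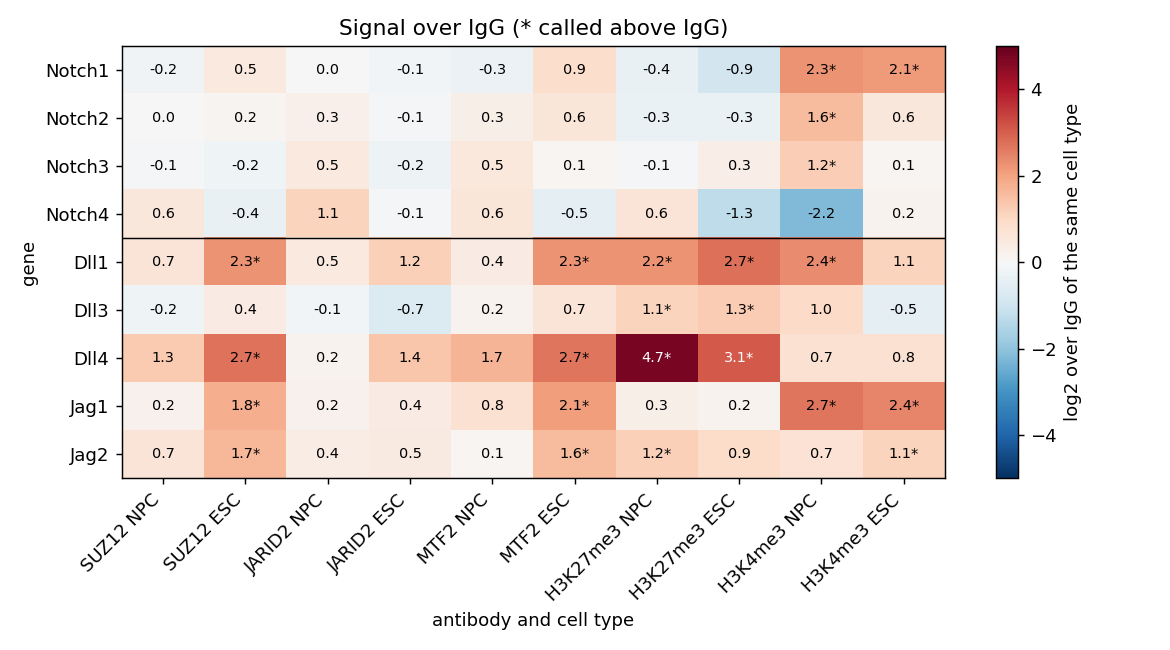
Log2 fold over IgG of the same cell type at the 9 promoters, for each antibody in NPC and in ESC, with an asterisk on values called at an adjusted p below 0.05 and a log2 fold of at least 1. H3K27me3 at Dll4 reads 4.73 in NPC and 3.07 in ESC, and SUZ12 and MTF2 have asterisks in ESC at Dll1, Dll4, Jag1 and Jag2.

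The 42 other genes of the pathway list, from the proteases to the Hes and Hey targets, were all tested. For SUZ12 1 rose and 14 fell, where 2.97% of all windows rose and 13.1% fell. DESeq2 called 10 of the genes and 1744 of the 21238 windows tested. For MTF2 1 rose and 12 fell, where 3.28% of all windows rose and 8.89% fell. Here DESeq2 called 8 genes and 1078 of 20885 windows. For JARID2 none was called by edgeR, with 0.83% of all windows called. At an unadjusted p below 0.05 there were 5 of these genes and 1962 of 21456 windows, and DESeq2 called none of the genes and 91 windows. For H3K27me3 12 rose and 5 fell, where 22.9% of all windows rose and 23.5% fell. Its DESeq2 calls were 6 genes and 3589 of 21863 windows. For H3K4me3 24 rose and 9 fell, where 26.7% of all windows rose and 29.2% fell. Its DESeq2 calls were 21 genes and 7611 of 19776 windows. The median changes of the list were -0.21 for SUZ12 (0.07 over all windows), -0.26 for MTF2 (0.07), 0.15 for JARID2 (0.01), 0.62 for H3K27me3 (0.12) and 0.26 for H3K4me3 (-0.02).

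Maml3, a Mastermind coactivator, had 46.9 ± 6.48 CPM of SUZ12 in NPC, against 269 ± 13.8 CPM in ESC (SD, n = 2 each), a change of -2.77 ± 0.26 (SE, adjusted p = 5.59e-24). Its MTF2 changed by -2.71 ± 0.70 (adjusted p = 0.00462). Hes5, a target that represses neuronal genes, had 68.9 ± 3.38 CPM of SUZ12 in NPC and 231 ± 43.3 CPM in ESC, a change of -2.01 ± 0.24 (adjusted p = 6.41e-15). Of the 5 Hes and Hey targets in the list 4 fell for SUZ12, against the 13.1% of all windows that fell. For H3K4me3 3 of them rose and 1 fell, against 26.7% and 29.2% of all windows. Nrarp, a feedback inhibitor of the receptor's intracellular part, fell for MTF2 by 1.51 on the log2 scale (adjusted p = 0.00578). Opposite to most genes called in the list, Psenen, a γ-secretase subunit, rose by 0.95 ± 0.31 for SUZ12 (adjusted p = 0.0186), and Mfng, a fringe glycosyltransferase, rose by 1.01 ± 0.33 for MTF2 (adjusted p = 0.0264). In ESC both lay below IgG on the CPM scale, Psenen with 26.4 against 57.0 CPM and Mfng with 25.0 against 57.0 CPM. The NPC libraries lay apart, at 42.3 and 79.4 CPM for Psenen and at 38.7 and 79.3 CPM for Mfng, all above the ESC libraries.

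For H3K4me3 the smallest p-values among those that rose were at Lfng and Maml2. Lfng, the fringe enzyme that adds sugars to Notch and alters its response to ligands, had 148 ± 0.0198 CPM in NPC, against 25.1 ± 1.89 CPM in ESC (SD, n = 2 each), a change of 2.52 ± 0.10 (SE, adjusted p = 3.46e-138). Maml2, another Mastermind coactivator, changed by 2.96 ± 0.12 for H3K4me3 (adjusted p = 2.68e-129) and by -2.26 ± 0.52 for H3K27me3 (adjusted p = 0.000112). Among those that fell, Poglut1, which adds glucose to Notch, changed by -1.21 ± 0.09 (adjusted p = 2.92e-39) and Rbpjl, a relative of RBPJ, by -0.95 ± 0.18 (adjusted p = 7.34e-07). For H3K27me3, Hes1, a target of Notch, rose by 1.96 ± 0.33 (adjusted p = 2.23e-07) and Mib2, a ubiquitin ligase of the ligands, by 2.35 ± 0.45 (adjusted p = 5.33e-06), and Dtx4, a Deltex ubiquitin ligase, changed by -1.52 ± 0.32 (adjusted p = 2.49e-05). Mib2 lay below IgG on the CPM scale in both cell types, with 29.8 CPM of H3K27me3 against 49.4 CPM of IgG in NPC and 5.94 against 36.9 CPM in ESC. The H3K4me3 of Rbpjl did so too, with 12.2 against 52.4 CPM in NPC and 22.1 against 67.0 CPM in ESC. Hes1 had 15.5 CPM of H3K27me3 in ESC, below the 40.2 CPM of IgG, and 48.9 against 43.4 CPM in NPC.

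Over the mean log2 CPM of the 10 groups of antibody and cell type, each member had 1 other TSS whose pattern was most like it among 15015 candidates. By Pearson's r these were Tsc22d2 for Notch1 (0.996), Ahi1 for Notch2 (0.985), Mcfd2 for Notch3 (0.942) and Ffar1 for Notch4 (0.991). For the ligands they were Npas3 for Dll1 (0.968), Mecom for Dll3 (0.963), Lmx1a for Dll4 (0.994), Hsd17b12 for Jag1 (0.987) and Gsto2 for Jag2 (0.903). Among the members themselves, Notch1 and Jag1 were most alike (0.926) and Notch1 and Dll4 least (-0.792). The points share libraries and the depth of each antibody, and no test was made of these values.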

How the data were processed

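The deposited values are raw counts of reads per window, 1 column per library, and are not normalized. The submitters' processing notes name the build mm10, Bowtie2 2.3.4.3 and Picard 2.19. The roles of these tools, the counting program and the treatment of duplicates were not given in the sources used here. The labels' protocols mention spike-in DNA of Drosophila, whose counts were not used here. All 22 columns were used. Of 24467 windows 5370 overlapped another and 142 held no read. Gene symbols turned into dates (27) were restored through their transcripts.

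For each antibody, edgeR 4.0.16 tested the change over 4 libraries (R 4.3.3, TMM, filterByExpr at a minimum count of 10, quasi-likelihood F test). Differences between antibodies were tested as interaction terms, and signal over IgG in 1 fit of all libraries. A count of 2 was added for the ratios to IgG that chose the background windows and for the log2 CPM values. The SE is the size of the log2 change divided by the square root of F. Alternatives were DESeq2 1.42.0, library totals, factors from background windows, no filter, a minimum count of 30, a replicate block, 1 fit over all libraries, both IgG libraries as the control, a minimum log2 fold over IgG of 2 and each library left out. The summed NPC JARID2 libraries and a crossed block were added after seeing the data. Counts of the NPC JARID2 pair gave a chi-square of 1.00 per degree of freedom, the value that sampling alone gives. The pair was still counted as 2 libraries, since the labels name them replicates and other shallow pairs were close to it, such as the NPC SUZ12 pair at 1.03. Same-numbered libraries did not deviate together, so the numbers were not taken as pairs.

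The 9 members are all named. From the pathway list, up to 2 genes in each direction with the smallest p among those that passed were named per antibody. The members and lists were chosen with earlier results of these data known.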

Additional observations from a re-analysis of the deposited data

Results flagged for a closer look

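The change between NPC and ESC differed between 2 antibodies at 6 members, by the interaction test of edgeR, which called 30.9% of all windows for the first pair below and 34.8% for the second. For H3K27me3 minus SUZ12 the differences on the log2 scale were 2.91 at Dll4 and 1.55 at Jag1. For H3K4me3 minus H3K27me3 they were 2.01 at Dll1, 1.86 at Dll3, 1.78 at Notch3 and -4.05 at Notch4. The calls at Dll3 and Notch4 held under all alternatives run for them, while those at Dll4, Jag1, Dll1 and Notch3 were each lost under some. The spread shared by the antibodies in these fits may be too small at Dll4 and Dll1. H3K27me3 was called above IgG in neither cell type at Jag1, Notch3 and Notch4, and H3K4me3 in neither at Dll3 and Notch4. Notch4 had its difference in H3K4me3, which was low in both NPC libraries, and the Dll1 and Dll3 promoters had more H3K4me3 and lower H3K27me3 CPM in both NPC libraries. Their windows hold 5000 bp, so whether 2 signals lie on the same nucleosomes was not measured.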

How the results depend on the processing

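Among single values of the members under the alternatives, 1075 kept direction and side of the threshold, 74 turned sign with no call on either side, 83 lost their call, 30 gained one and 2 turned sign from a call: Jag2 at a minimum count of 30 for SUZ12 (0.053) and with background factors for H3K4me3 (0.019). The cause was not tested, except that a stricter filter or 1 fit changes which windows are tested and how the spread is shared. The counts of single values leave out those without an adjusted p in DESeq2 and those not tested under a filter. In what follows a count of members is given before the count of all windows.

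For SUZ12 (5 and 3416) there were 3 and 1744 with DESeq2, 3 members with library totals, 2 and 1616 at a minimum count of 30, and 2 and 1617 in 1 fit over all libraries. For JARID2 (1 and 178) DESeq2 gave 91 windows, and 1 fit gave 0 and 0, with 1172 windows and 1 member at an unadjusted p below 0.05. For MTF2 (2 and 2540) DESeq2 gave 1 and 1078 and a minimum count of 30 gave 1 and 983. For H3K27me3 (1 and 10143) DESeq2 gave 1 and 3589, library totals 2 and 6390, a minimum count of 30 2 and 4530, and 1 fit 3 members. The member called was Notch3, as lower, in the main fit and Dll4, as higher, with DESeq2. Library totals called Dll1 and Dll3 as lower, and a minimum count of 30 called Dll4 and Jag2 as higher. For H3K4me3 (8 and 11064) background factors gave 5866 windows and 1 fit 6764. For H3K27me3 minus SUZ12 (2 and 7252) DESeq2 gave 1 and 2678 and library totals 1 member, and for JARID2 minus MTF2 (0 and 780) DESeq2 gave 103 windows. At a minimum count of 30 the only receptor tested was Notch1 for MTF2 and Notch3 for H3K27me3. The change of that receptor minus the median of the ligands tested was 0.15 for MTF2 and -0.75 for H3K27me3.

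The split of higher and lower windows moved with the scaling and with DESeq2, which differs from the main fit in more than its scaling. For SUZ12 it was 630 higher and 2786 lower with TMM, 2391 and 2031 with library totals, 323 and 3235 with background factors, 11 and 1733 with DESeq2. For MTF2 it was 684 and 1856 with TMM, 2107 and 1439 with library totals, 250 and 2453 with background factors and 4 and 1074 with DESeq2. For H3K27me3 it was 5010 and 5133 with TMM, 1676 and 4714 with library totals, 2909 and 6977 with background factors and 1087 and 2502 with DESeq2. For H3K4me3 it was 5286 and 5778 with TMM and 3365 and 2501 with background factors.

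Above IgG in NPC, library totals gave 177 windows for SUZ12, 204 for MTF2, 2 members and 2131 windows for H3K27me3 and 3 and 4088 for H3K4me3. IgG of both cell types gave 35 windows for SUZ12 and 89 for MTF2 in NPC and 2410 for SUZ12 in ESC. A log2 fold of at least 2 left 2 and 2140 for H3K27me3 and 3 and 3623 for H3K4me3 in NPC. In ESC it left 2 and 860 for SUZ12, 1155 for MTF2, 3939 for H3K4me3 and 2294 for H3K27me3. Library totals in ESC gave 2 members for SUZ12, and 1435 windows for MTF2, 32 for JARID2, 4387 for H3K4me3 and 2903 for H3K27me3.

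Leaving out each library in turn, the counts of members and of windows ranged from 3 to 5 and 2119 to 3003 for SUZ12, 0 to 3 and 98 to 2626 for MTF2, 0 to 1 and 67 to 139 for JARID2, 0 to 4 and 3573 to 10378 for H3K27me3, and 6 to 8 and 7811 to 12296 for H3K4me3. They ranged from 0 to 5 and 3332 to 8367 for H3K27me3 minus SUZ12, 0 to 2 and 25 to 1875 for JARID2 minus MTF2, and 3 to 5 and 4944 to 9381 for H3K4me3 minus H3K27me3. Above IgG in NPC they ranged from 0 to 38 windows for MTF2, from 5 to 5 and 8143 to 9233 for H3K4me3 and 2 to 4 and 2672 to 4297 for H3K27me3. In ESC they ranged from 1 to 4 and 463 to 1163 for SUZ12, 1 to 4 and 628 to 2379 for MTF2, 2 to 2 and 7684 to 7784 for H3K4me3 and 3 to 3 and 4008 to 5269 for H3K27me3. The receptor median minus the ligand median ranged from 0.55 to 1.11 for SUZ12, 0.15 to 1.11 for MTF2, -0.19 to 0.69 for JARID2, -0.54 to 0.090 for H3K27me3, and -0.22 to -0.075 for H3K4me3.

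With the replicate number as a block, MTF2 had 0 members and 507 windows, with 3 members and 4453 windows at an unadjusted p below 0.05. Under the same block H3K27me3 minus SUZ12 had 1 member and JARID2 minus MTF2 438 windows. The correlation of deviations of same-numbered libraries was -0.21 for H3K27me3, -0.18 for MTF2 and -0.14 for H3K4me3, and -0.0052 and 0.013 for SUZ12 and JARID2, so the numbers mark no pairs. A crossed pairing of those 3 antibodies, chosen after seeing the data, gave 4 members and 4086 windows for MTF2, 10982 windows for H3K27me3 and 10658 for H3K4me3. With the NPC JARID2 libraries summed there were 193 windows and 1 member, Dll4.

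Depth limits all ratios to IgG in ESC, since 3 counts of that library were 10.05 CPM, and the single IgG library per cell type has no replicate check. With 2 libraries per group each call over H3K27me3 rests on an NPC pair that differed widely. Spread between cultures beyond these pairs was not measured.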
